A study of Mus musculus with 6 samples.

Results

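The miR-29 family was followed through the microRNA counts of 3 mouse oviducts and 3 primary tumors. Its 5 strands, mmu-miR-29a-3p, mmu-miR-29a-5p, mmu-miR-29b-3p, mmu-miR-29c-3p and mmu-miR-29c-5p, were taken by name from the 1915 mouse names of the count table. The control oviducts had the genotype Dicer1+/D1693N, so they were heterozygous for the mutation and not wild type. The primary tumors, labelled ADT tumors with oviduct as their tissue, had the genotype Dicer1ko/D1693N, in which the other allele is a knockout. No sample was treated, and the sources used here give no age, strain or driver of the knockout. Whether each sample is a different mouse is not stated, and the p-values therefore speak only of the spread between libraries, part of which may be technical.

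Dicer cuts a hairpin precursor with its RNase IIIa domain on the 3p side and its RNase IIIb domain on the 5p side, and D1693N lies in RNase IIIb. The RNase IIIa cut sets the first base, and with it the seed, of a 3p strand. The miR-29 family is a 3p-guided family: its 3p strands are loaded into Argonaute as guides, while its 5p strands are usually discarded as passengers. It is known for repressing messenger RNAs of the extracellular matrix, among them collagens, elastin and fibrillin, and DNA methyltransferases, and its loss in fibroblasts is a textbook feature of fibrosis. None of these messenger RNAs was measured here. The question put to the data was whether the 3p guides of this family kept their level in tumors with no Dicer1 allele other than D1693N and a knockout.

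The guides share a seed and differ by few bases, which matters for how reads could be shared among them. RefSeq (GRCm38.p6) held a sequence for 5 of 5 strands. The 3 guides are shown 5′ to 3′ with the seed (bases 2 to 8) in capitals.
miR-29a-3p: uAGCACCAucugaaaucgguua
miR-29c-3p: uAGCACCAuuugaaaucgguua
miR-29b-3p: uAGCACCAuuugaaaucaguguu
Counted from 1 at the 5′ end, miR-29a-3p and miR-29c-3p differ by the single substitution C10U. From miR-29c-3p to miR-29b-3p the changes within the first 22 bases are G18A, U21G and A22U, and miR-29b-3p is 23 bases long. Of 1679 mouse mature names in the RefSeq table, 3 have this seed, and they are the 3 guides. How the authors' counting treated reads with a mismatch at base 10 is not stated in the labels or headers, so the split between miR-29a-3p and miR-29c-3p rests on that step. No other name in the count table had the same counts as a member.

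The hairpins lie in pairs on chromosomes 6 and 1. Mir29a (chromosome 6, 31062660 to 31062747, minus strand) is separated by 275 bases from Mir29b-1 (31063023 to 31063093), which overlaps an exon of the long noncoding RNA gene Gm27019. GENCODE M21 lists no host gene over Mir29a. Mir29b-2 (chromosome 1, 195037040 to 195037120, plus strand) and Mir29c (195037547 to 195037634) are 426 bases apart. Both overlap exons of the noncoding gene A330023F24Rik and, on the opposite strand, an exon of Cd46. The same miR-29b-3p sequence comes from Mir29b-1 and Mir29b-2, so its counts cannot be divided between the chromosomes. The hairpins of miR-29a and miR-29c, from which the counted 5p and 3p strands come, are shown with both mature strands in capitals, the 5p strand first.
Mir29a: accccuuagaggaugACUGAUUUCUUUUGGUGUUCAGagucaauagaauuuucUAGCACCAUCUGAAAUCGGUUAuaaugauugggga
Mir29c: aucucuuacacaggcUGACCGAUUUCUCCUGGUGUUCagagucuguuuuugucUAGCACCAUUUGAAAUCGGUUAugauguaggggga

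Oviduct libraries held 297039 to 580390 mouse counts and tumor libraries 154002 to 272167. Levels are given as CPM, the count scaled by the size of the library and by TMM (trimmed mean of M-values) factors, and a floor of 3 counts stood at 5.48 to 15.1 CPM. Of the 5 strands, 3 passed the low-count filter of the test, all of them guides, among 227 microRNAs tested with edgeR's quasi-likelihood test. The 2 members that did not pass were miR-29a-5p and miR-29c-5p. Genotype, tumor state and a tag in the header that is s0 for each oviduct and s1 for each tumor cannot be told apart. In tissue samples, fewer cells of a type and less of a microRNA per cell cannot be told apart either.

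All 3 guides had lower mean levels in the tumors, and miR-29c-3p was the only one of them whose difference passed the threshold (edgeR, adjusted p under 0.05). It was 1 of 3 tested members called lower, where 52.4% of all 227 tested microRNAs were called in either direction and 25.6% were called lower. Of the 110 tested 3p microRNAs 11 were called lower. A count of 1 among 3 is too small to set against these shares. The plot of the strands by library shows the order of levels, with miR-29a-3p far above miR-29c-3p and miR-29b-3p and both 5p strands near the floor.

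**Figure D1:**
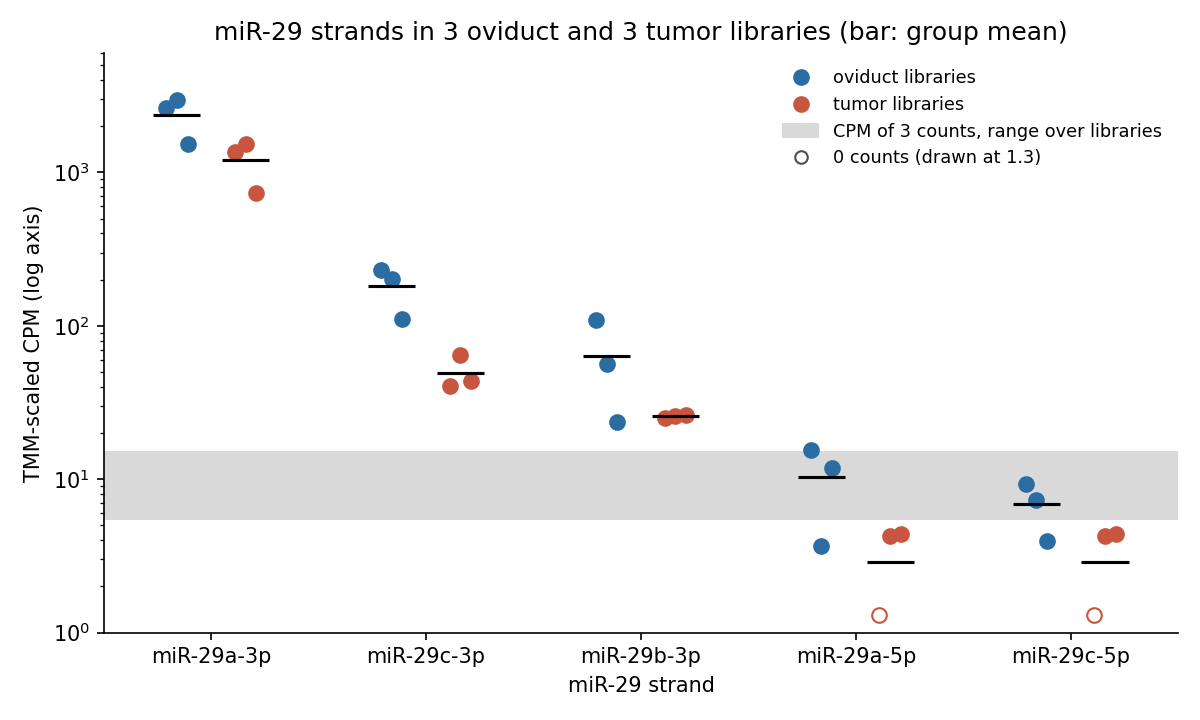
TMM-scaled CPM (vertical log axis) of the 5 miR-29 strands in each oviduct (blue) and tumor (red) library, with bars at group means, a grey band for the CPM of 3 counts and open circles for 0 counts. The oviducts lie above the tumors without overlap for miR-29a-3p and miR-29c-3p, by a narrow gap for miR-29a-3p.

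The most abundant member was miR-29a-3p, the guide of the Mir29a hairpin. Its level was 2641, 2943 and 1534 CPM in oviducts 1, 2 and 3 and 1365, 1524 and 734 CPM in tumors 1, 2 and 3. In TMM-scaled CPM the groups did not overlap, but the lowest oviduct, oviduct 3, lay barely above the highest tumor, tumor 2. By library totals they did overlap: tumor 2, with 355 of 176615 mouse counts, was above oviduct 3, with 388 of 297039. By counts the rank of miR-29a-3p among the mouse names was 35 to 48 over the oviducts and 42 to 67 over the tumors. The mean was 2372 ± 742 CPM in the oviducts against 1208 ± 418 CPM in the tumors (SD, n = 3 each). The log2 change from oviduct to tumor was -0.97 (SE 0.40, 95% interval -1.85 to -0.10), a 1.97-fold lower level that narrowly missed the threshold after adjustment over all microRNAs (edgeR adjusted p = 0.0578). Without oviduct 3 the log2 change was -1.57 and it was called (edgeR adjusted p = 0.0167), as it was without tumor 1 (-1.37, adjusted p = 0.0190) and by DESeq2 (-0.99, adjusted p = 0.0396). With library totals in place of TMM factors it was -0.63 (edgeR adjusted p = 0.360). The adjusted p of miR-29a-3p thus lay between 0.00796 and 0.360 over 15 alternatives.

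The guide of Mir29c, miR-29c-3p, fell in the tumors. It had 231, 201 and 111 CPM in the oviducts against 40.3, 64.4 and 44.0 CPM in the tumors. The oviducts were all above the tumors, with a wider gap than for miR-29a-3p, and oviduct 3 was again the lowest of its group. Its mean went from 181 ± 62.5 to 49.55 ± 12.99 CPM (SD, n = 3 each), which is 3.63-fold lower by the edgeR estimate (adjusted p = 0.0141, log2 -1.86 with SE 0.54). These levels rest on 74, 110 and 28 counts in the oviducts against 8, 15 and 10 in the tumors. The call was lost without oviduct 2 (log2 -1.87, edgeR adjusted p = 0.0584) and with library totals alone (log2 -1.44, adjusted p = 0.0990), over an adjusted p range of 0.00172 to 0.0990 in 15 alternatives. In TMM-scaled CPM the groups did not overlap for 2 of the 3 tested guides, miR-29a-3p and miR-29c-3p. Beside this, the tumors were all below the oviducts for 30.4% of all tested microRNAs and 13.6% of tested 3p microRNAs.

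The least abundant guide, miR-29b-3p, the product of both Mir29b hairpins, was too thinly counted for a firm statement. It had 109, 56.6 and 23.7 CPM in the oviducts against 25.2, 25.8 and 26.4 CPM in the tumors. Oviduct 3 lay below all 3 tumors, so the groups overlapped, while oviducts 1 and 2 lay above them. The counts behind these levels were 35, 31 and 6 in the oviducts against 5, 6 and 6 in the tumors. The log2 change was -1.29 (SE 0.58, 95% interval -2.59 to 0.01, edgeR adjusted p = 0.0850). Without oviduct 3 it was -1.99 and was called (edgeR adjusted p = 0.0326). Such a change was not established at this depth, and its interval includes both no difference and a fall larger than that of miR-29c-3p.

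The order of the guides, miR-29a-3p over miR-29c-3p over miR-29b-3p, was the same in all 6 libraries. Their CPM are set side by side as reads and not molecules, and how evenly the strands were captured was not tested. Across the oviducts, the lowest miR-29c-3p level (111 CPM, oviduct 3) lay just above the highest miR-29b-3p level (109 CPM, oviduct 1). Across the tumors the lowest miR-29c-3p value, 40.3 CPM, was above the highest miR-29b-3p value, 26.4 CPM. Within libraries these 2 guides lay closer in the tumors. Their mean log2 ratio, miR-29b-3p to miR-29c-3p with 0.5 added to each count, was -1.67 (SD 0.55) in the oviducts. In the tumors it was -0.86 (SD 0.34), and the groups overlapped. Summed over the 3 guides, the family had 2981, 3200 and 1668 CPM in the oviducts against 1430, 1614 and 805 CPM in the tumors. The sum follows miR-29a-3p, which supplied most of it, and it is given as a description with no test.

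Most of the guide counts came from miR-29a-3p in both groups. The share of miR-29a-3p among the guide counts was 90.8% ± 1.94 in the oviducts against 93.7% ± 2.17 in the tumors, and the share of miR-29c-3p was 6.88% ± 0.764 and 4.09% ± 1.33 (SD, n = 3 each). In single libraries miR-29c-3p took 7.74% (exact 95% Clopper-Pearson interval 6.13 to 9.62), 6.27% (5.19 to 7.51) and 6.64% (4.45 to 9.45) in the oviducts. It took 2.82% (1.22 to 5.47), 3.99% (2.25 to 6.49) and 5.46% (2.65 to 9.82) in the tumors. The shares of the 2 groups did not overlap, but the interval of tumor 3 covered the oviduct values. These intervals cover counting error only, since PCR copies of a molecule could not be recognised. The share of miR-29b-3p was 2.28% ± 1.21 and 2.21% ± 0.928, a difference smaller than the spread in either group.

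**Figure D2:**
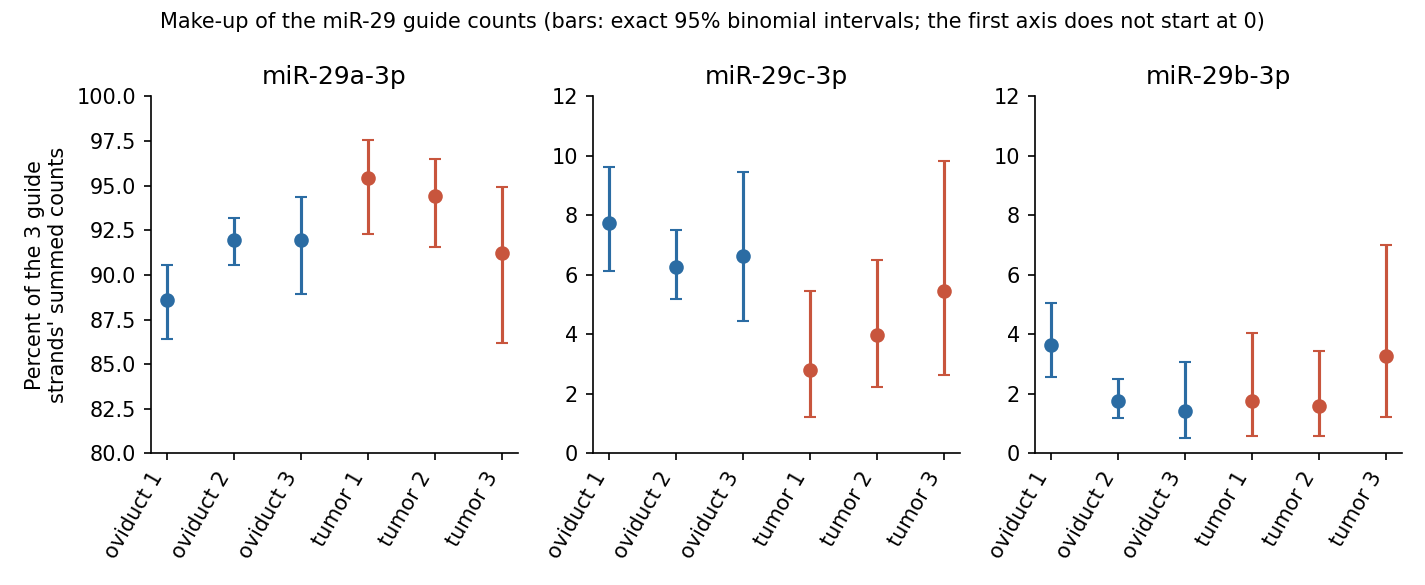
Percent of the summed counts of the 3 guides taken by each guide (vertical axes; the first does not start at 0) in each of the 6 libraries, with exact 95% binomial intervals. Tumors 1, 2 and 3 had 2.82%, 3.99% and 5.46% for miR-29c-3p, below the 3 oviducts.

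Whether the guides changed by unequal amounts was tested with the log2 ratio of each pair within a library, with 0.5 added to each count, which needs no scaling. The ratio of miR-29a-3p to miR-29c-3p was 3.51, 3.87 and 3.77 in the oviducts against 4.997, 4.52 and 3.996 in the tumors. All tumors were above all oviducts, and the mean difference was 0.79 (SE 0.31, two-sided exact permutation p = 0.1, adjusted over 3 pairs 0.3). With 5 added to each count this difference was 0.43 (SE 0.29, exact permutation p adjusted to 0.4), and the groups then overlapped. The ratio of miR-29b-3p to miR-29c-3p was higher by 0.81 in the tumors (SE 0.37, exact permutation p = 0.2, adjusted 0.3), and that of miR-29a-3p to miR-29b-3p differed by -0.02 (SE 0.53, exact permutation p = 0.9, adjusted 0.9), or by -0.43 (SE 0.45) with 5 added. A design of 3 against 3 cannot go below 0.1, so none of the 3 pairs could have been called. Whether miR-29c-3p changed more than miR-29a-3p therefore rests on the values and SE given, not on this test.

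The 5p strands were close to undetected in both groups. The passenger strand miR-29a-5p had 5, 2 and 3 counts in the oviducts against 0, 1 and 1 in the tumors. The passenger miR-29c-5p had 3, 4 and 1 counts in the oviducts against 0, 1 and 1 in the tumors. Every library lay at 5 counts or fewer, and the groups overlapped in CPM for each strand. Per mouse count of the pooled libraries, miR-29a-5p had a ratio of tumors to oviducts of 0.416 (exact 95% interval 0.0443 to 1.95) and miR-29c-5p one of 0.520 (0.0538 to 2.60). Both intervals are for counting error only, without the spread between libraries, and no TMM factors were used. The strands miR-29b-1-5p and miR-29b-2-5p, which are not among the 5, had 0 counts in all libraries. Beside 72 oviduct counts and 17 tumor counts of miR-29b-3p, a floor of 3 counts would be a 5p share of 4.17% and 17.6%, and the exact 95% upper limits are 4.99% and 19.5%.

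The miR-29 hairpins were therefore 3p-dominated in both groups. The pooled 5p share of miR-29a was 0.350% (exact 95% interval 0.168 to 0.643) of 2847 3p and 10 5p counts in the oviducts, and 0.252% (0.0305 to 0.906) of 793 3p and 2 5p counts in the tumors. For miR-29c it was 3.64% (1.58 to 7.04) and 5.71% (0.6997 to 19.2), from 8 5p beside 212 3p counts and from 2 beside 33. The log2 5p:3p ratio, with 0.5 added to each count, was tested with limma over 142 hairpins. It changed by -0.13 in miR-29a (SE 0.83, limma adjusted p = 0.920) and by 1.00 in miR-29c (SE 0.59, limma adjusted p = 0.191), and neither was called. Among all 142 hairpins 47.2% fell and 4.23% rose, and 23.9% fell among the 67 that were 3p-dominated in the oviducts, a set that also held all 6 hairpins that rose. Of these 6, miR-375, miR-320 and miR-328 had an oviduct 5p share of 0%, miR-92b 0.0139%, miR-133a 0.114% and miR-136 41.4%. At shares near 0 the added 0.5 weighs on the ratio, so a rise there need not be a gain of 5p counts. The hairpin miR-29b was below the minimum of 20 mean counts and was not tested. By Fisher's exact conditional odds ratio the 5p:3p ratio in the tumors was 0.718 times that in the oviducts for miR-29a (95% interval 0.0764 to 3.38) and 1.60 times for miR-29c (0.159 to 8.53), again for counting error only. With so few 5p reads neither a loss of the 5p strand within these hairpins nor a gain within those upper limits, 3.38 for miR-29a and 8.53 for miR-29c, was detectable. The sign for miR-29a changed when 5 was added to each count (log2 1.12), and miR-29c was then called (log2 1.67, limma adjusted p = 0.00617). The added count is then at least as large as every 5p count of these hairpins. With 0.1 added to each count the log2 changes were -1.02 for miR-29a and 0.23 for miR-29c, and neither was called.

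**Figure D3:**
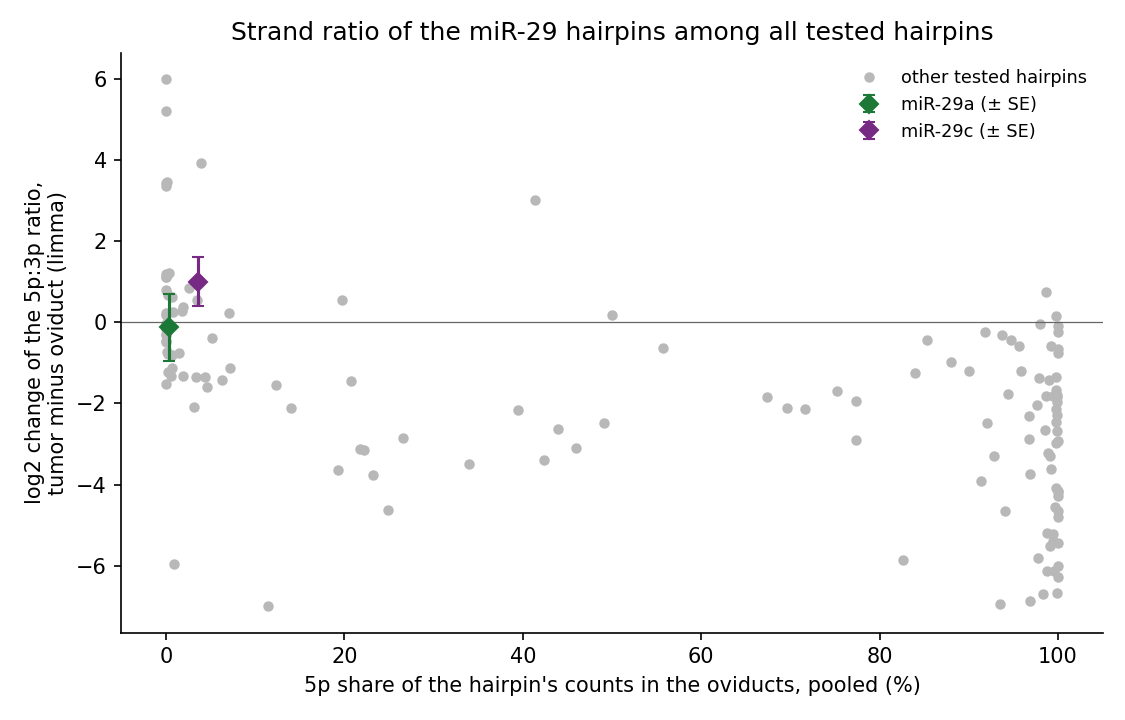
Log2 change of the 5p:3p ratio from oviduct to tumor (vertical axis) against the pooled 5p share of the hairpin in the oviducts (horizontal axis, %), each point 1 of 142 tested hairpins, with SE bars for miR-29a and miR-29c. Both lie at the left edge, at 5p shares of 0.350% and 3.64%, with changes of -0.13 and 1.00.

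The guides stood in the lower part of the 3p microRNAs. The median log2 change of the 110 tested 3p microRNAs was 0.89, with 46 called higher and 11 lower (7 lower without oviduct 2). These 110 hold guides and passengers alike, and the median of the 34 tested 3p-guided microRNAs was lower, at 0.40. Of the 110, 13 had a lower log2 change than miR-29a-3p, 8 a lower one than miR-29b-3p and 6 a lower one than miR-29c-3p. The distance from the 3p median, on the log2 scale, was -1.87 for miR-29a-3p, -2.18 for miR-29b-3p and -2.75 for miR-29c-3p. A change of scaling shifts all log2 changes by nearly the same amount, so this distance could hardly move with it. With library totals alone it was -1.93, -2.21 and -2.75, while the 3p median itself moved to 1.31, and with TMM factors from 3p names alone it was -1.89, -2.26 and -2.81 beside a 3p median of 0.04. Over all 16 fits, filters and left-out libraries included, it ran from -2.46 to -1.45 for miR-29a-3p, from -2.84 to -1.77 for miR-29b-3p and from -3.35 to -2.52 for miR-29c-3p. With the 3p factors, which treat 3p names as unchanged on average, miR-29a-3p and miR-29b-3p were called as well (log2 -1.85 and -2.22, edgeR adjusted p = 0.00869 and 0.0160).

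**Figure D4:**
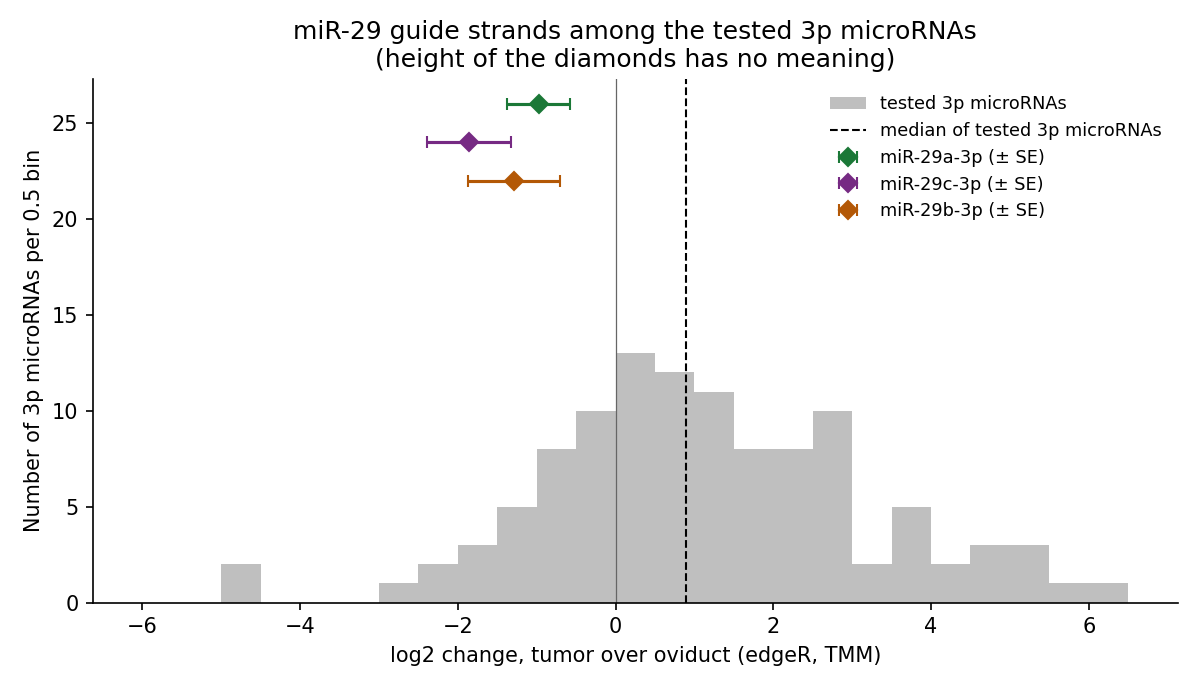
Histogram of the log2 change from oviduct to tumor (horizontal axis, edgeR with TMM) of the 110 tested 3p microRNAs, with the 3 miR-29 guides as diamonds with SE bars placed above it and the 3p median of 0.89 as a dashed line. The guides lie to the left of the median, at -0.97, -1.29 and -1.86.

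Other microRNAs whose guide comes from the 3p side were set beside the family as a list of 35, of which 34 were tested. In this list 9 rose, 4 fell and 21 were not called, with a median log2 change of 0.40, where the median of all 227 tested microRNAs was 0.20 with 26.9% higher and 25.6% lower. Leaving out oviduct 1, 2 or 3 gave 5 that rose. The split was 11 higher and 2 lower with library totals alone, and 4 higher and 12 lower with TMM factors from 3p names. The 4 that fell, named after their values were seen, were miR-148a-3p (log2 -1.08), miR-200c-3p (-1.03), miR-222-3p (-2.28) and miR-375-3p (-4.71). The 4 most abundant were miR-143-3p (log2 -0.45, SE 0.67), miR-27b-3p (0.06, SE 0.31), miR-22-3p (0.28, SE 0.31) and miR-199a-3p (2.86, SE 0.30), and only miR-199a-3p was called (edgeR adjusted p = 5.20e-05). Of the 34, 4 had a lower log2 change than miR-29a-3p and 2 a lower one than miR-29c-3p.

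The list of microRNAs linked to matrix and fibrosis held calls in both directions, and its 12 names are too few to set against the shares of all microRNAs. Among the 12, all of them tested, 2 rose and 4 fell, with 6 not called and a median log2 change of -0.44, where 26.9% of all 227 tested microRNAs rose and 25.6% fell. The 4 that fell were 5p strands (miR-26a-5p, miR-30c-5p, let-7d-5p and miR-199a-5p), and the 2 that rose were 3p strands (miR-199a-3p and miR-214-3p). Among the 6 not called, the 3p strands miR-133a-3p (log2 -1.23) and miR-200b-3p had negative changes. The 5p strands miR-155-5p (log2 1.48), miR-21a-5p and miR-192-5p (0.57) had positive ones, and miR-34a-5p had -0.05. The part of the arm in these calls was not tested. With library totals alone 3 rose and 1 fell, and with TMM factors from 3p names 2 rose and 5 fell. Among the 4 most abundant, miR-26a-5p fell (log2 -1.61, SE 0.31, edgeR adjusted p = 0.00162) and miR-199a-3p rose. The other two were miR-21a-5p (log2 0.64, SE 0.37), the classic profibrotic microRNA, and miR-200b-3p (log2 -0.83, SE 0.41), which restrains the epithelial-mesenchymal transition, and neither was called.

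MicroRNAs typical of cell types are given beside these results, and their counts stand against 26.9% called higher and 25.6% called lower among all tested microRNAs. Of 6 tested microRNAs of smooth muscle and fibroblasts, 2 rose (miR-199a-3p and miR-214-3p), 3 fell (miR-145a-5p, miR-145a-3p and miR-199a-5p) and 1 was not called. Their summed level ran from 495317 to 562151 CPM over the oviducts, and from 138786 to 863967 CPM over the tumors. The largest part of that sum was the uncalled miR-143-3p, at 485394 to 554585 CPM over the oviducts and 94436 to 835012 CPM over the tumors. The other 5 together had 7566 to 9923 CPM and 28955 to 44350 CPM. Most of that tumor level was miR-199a-3p, at 3866 to 4896 CPM over the oviducts and 27505 to 42415 CPM over the tumors. The 2 that rose had log2 changes of 2.86 and 2.76, and the 3 that fell had -4.76, -1.90 and -3.83, in the order named. Of 5 tested of 6 multiciliated-cell microRNAs 3 fell, the sum running from 14867 to 21618 CPM and from 422 to 1209 CPM. Most of the oviduct sum was 1 strand, miR-34c-5p, at 12879 to 20044 CPM over the oviducts and 47.2 to 715 CPM over the tumors. The 3 that fell were miR-34c-5p (log2 -5.83), miR-34b-5p (-5.01) and miR-34b-3p (-1.53). Not called were miR-34c-3p (log2 -0.96) and miR-449a-5p (-2.15). Of 7 epithelial microRNAs 1 rose and 1 fell, with sums of 7218 to 12212 and 4165 to 7298 CPM. Of 6 leukocyte microRNAs 0 were called by edgeR, with sums of 1427 to 2404 and 1430 to 7316 CPM. Of these 6, 2 had an unadjusted edgeR p under 0.05, and DESeq2 called 1 and limma-voom 0. The 2 endothelial strands of miR-126a rose, from sums of 7146 to 9548 to sums of 15198 to 20197 CPM, and of 2 tested of 3 red-cell microRNAs 1 rose. No marker of these lists was at 0 in all 6 libraries. The part of these cell types in the levels of miR-29 was not tested.

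The microRNAs most like each guide over the 6 libraries were found by Pearson's r of log2(CPM + 1) among the 171 tested ones whose mean reached 100 CPM. These r values are descriptions over 6 libraries that share the group difference and their depth. For miR-29c-3p they were miR-99b-5p (r = 0.993), miR-26a-5p (0.988) and miR-125a-5p (0.986), all 3 of them 5p strands that fell, with log2 changes of -1.52, -1.61 and -2.01. For miR-29a-3p they were miR-145a-3p (r = 0.964, log2 -1.90), miR-23a-3p (0.881, log2 -0.42) and miR-186-5p (0.877, log2 -0.93), of which miR-145a-3p was called. For the thinly counted miR-29b-3p the r values were lower, at 0.906 for miR-141-3p, 0.842 for miR-30e-5p and 0.836 for miR-26a-5p. Among the guides themselves r was 0.874 between miR-29a-3p and miR-29c-3p, 0.827 between miR-29b-3p and miR-29c-3p and 0.743 between miR-29a-3p and miR-29b-3p.

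The direction of the 3 guides was the same in every setting run. Each was lower in the tumors in 16 of 16 fits, those being the reported one and 15 alternatives. The fall passed the threshold in 14 of these fits for miR-29c-3p, in 7 for miR-29a-3p and in 2 for miR-29b-3p.

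**Figure D5:**
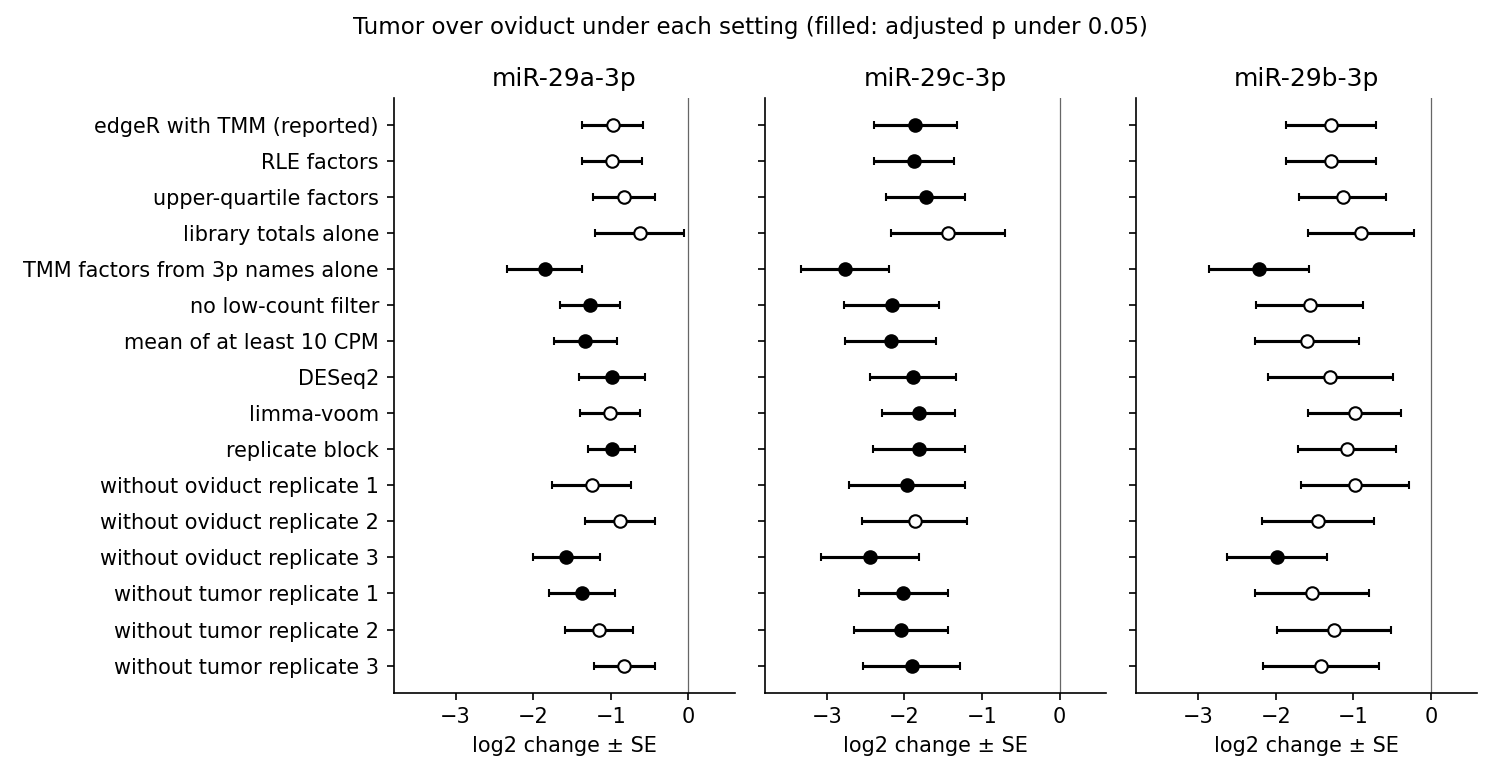
Log2 change from oviduct to tumor with SE (horizontal axes) of miR-29a-3p, miR-29c-3p and miR-29b-3p under each setting (rows), with filled circles where the adjusted p was under 0.05. All points lie below 0, and 7, 14 and 2 of the 16 are filled.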

How the data were processed

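Small RNA libraries (Illumina TruSeq) were made from miRNeasy total RNA, per the labels' protocols. Per the submitters' processing notes, adapters were trimmed with cutadapt, and per the file headers the trimmed reads were counted from BAM files. Neither labels nor headers state the aligner, counter, microRNA reference or build. Raw, unnormalized counts per mature name were deposited. The 67 names of other species held 10 counts and were left out. The series text speaks of more oviducts and tumors than the 3 and 3 analysed here.

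Groups and replicate numbers came from the sample titles. Counts were tested with edgeR 4.0.16 in R 4.3.3 (filterByExpr, minimum count 10, TMM, robust quasi-likelihood; SE from the F statistic), which kept 227 names and at least 99.3% of each library's counts. Tests were two-sided, with Benjamini-Hochberg adjustment over all tested names and a threshold of 0.05. The log2 5p:3p ratio (pseudocount 0.5, mean total of at least 20) was tested with limma 3.58.1 over all hairpins. Copies of miR-29b were pooled. Ratios between guides were tested by exact permutation over 20 assignments of the labels. Methods were tested on simulated data.

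Members and lists were chosen with earlier results of these data known. The named microRNAs are the members, the other miR-29 strands, the 3 tested microRNAs most like each guide (mean CPM at least 100), and up to 4 most abundant tested members of the lists of 3p-guided and of matrix-linked microRNAs. Other list members are named beside small counts, and hairpins that rose beside their number, after their values were seen. Sequences are from RefSeq and hairpin positions from GRCm38, with overlaps from GENCODE M21. Figures used Python 3.11.15 with matplotlib 3.10.9. Alternatives were other scalings, filters and pseudocounts, DESeq2 1.42.0, limma-voom, an edgeR interaction of arm and group, a replicate block, and each library left out in turn.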

Additional observations from a re-analysis of the deposited data

How the results depend on the processing

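Calls of the guides depended on the setting while their direction did not. The miR-29c-3p change was no longer called with library totals alone (log2 -1.44). That of miR-29a-3p became called with TMM factors from 3p names (log2 -1.85), with no low-count filter (-1.27), with names kept from 10 CPM up (-1.33) and by DESeq2 (-0.99), and that of miR-29b-3p with TMM factors from 3p names (-2.22). Leaving out 1 library at a time gave -1.57 to -0.83 for miR-29a-3p, -1.99 to -0.98 for miR-29b-3p and -2.44 to -1.87 for miR-29c-3p. No pairing by replicate number was seen: same-numbered oviducts and tumors had correlations of -0.07, 0.04 and -0.13 between their deviations. Differently numbered ones had -0.08 to 0.12. Deviations from means of 3 libraries cannot exclude a pairing. With the replicate block miR-29a-3p was called (log2 -0.99, edgeR adjusted p = 0.0219), and no other guide's call changed.

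Of 227 tested microRNAs 58 were called lower, against 26 with library totals and 92 with TMM factors from 3p names. Those called higher numbered 61, against 98 of 919 tested with no filter. For 3p microRNAs called lower the counts were 11, 6 and 26, and 17 with no filter, where more names were tested. The 3p-guided list gave 2 lower with library totals, 4 higher and 12 lower with TMM factors from 3p names, and 5 higher at a mean of at least 10 CPM. The matrix-linked list gave 1 lower with library totals. Fits with single libraries left out tested 241 to 262 names. In them the counts ran from 42 to 73 for all lower and from 7 to 16 for 3p lower. For the 3p-guided list they ran from 5 to 13 higher and from 3 to 6 lower. The miR-29a 5p:3p change ran from -0.89 to 0.45 over libraries left out, and that of miR-29c from 0.70 to 1.34. With a pseudocount of 5 they were 1.12 and 1.67, the latter called. With a pseudocount of 0.1 they were -1.02 and 0.23, neither called. Hairpins that rose numbered 6, and 2 by the edgeR interaction. The change of the miR-29a-3p to miR-29b-3p ratio ran from -0.43 to 0.31 over libraries left out. The cause of these differences was not tested. The miR-29b hairpin reached the test only at a minimum mean total of 5 (log2 1.66, SE 0.76, limma adjusted p = 0.1004), where the value follows the pseudocount because its 5p counts were all 0. The fits with 1 of its 5p copies stayed below the minimum of 20 and gave no value. Depth limits miR-29b-3p and the 5p strands most.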
